A study of Mus musculus with 6 samples.

Results

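The BCL2 family genes described here are 10 genes whose proteins decide whether a mitochondrion releases the signals that start apoptosis, the programmed form of cell death. They were taken from the deposited mouse skin table by gene symbol, 10 of 33308 genes, from a list set by name with earlier results of these data known. RNA-seq was carried out on 3 skin samples from mice treated with osimertinib, a drug that blocks the kinase of the growth factor receptor EGFR, with skin taken after 42 days of treatment, and on 3 skin samples from untreated control mice. The sources used here give no dose, route, strain, sex or age. Separate animals are not stated either, and p-values therefore speak only to the spread among these 6 samples, which may be technical. All 10 members had a mean FPKM (fragments scaled to gene length and library size) of at least 1 over the 6 libraries, the filter for testing, and were tested.

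Library totals were 59877553 to 60719064 counts in osimertinib libraries and 54112624 to 57174797 in control libraries. All 8 basal keratinocyte markers, Krt5 and Krt14 among them, were detected in every library and summed to 9570 to 18000 CPM (counts scaled to library size, here with TMM factors) in osimertinib skin and 10300 to 32500 CPM in control skin. Of the basal and of the suprabasal keratinocyte markers, 8 of 8 had a negative log2 fold change (median −1.09 and −1.40). The pieces also held other tissue, in unequal amounts. The 15 skeletal muscle markers took 7.16%, 4.34% and 7.03% of the count in osimertinib libraries 1, 2 and 3, against 4.55%, 13.3% and 0.0321% in control libraries 1, 2 and 3, so control 2 was rich in muscle RNA and control 3 nearly free of it. The 13 hair matrix and shaft markers in the table summed to 641 to 4890 CPM in osimertinib skin and 21.9 to 237 CPM in control skin. Of these, Krt33b, Krt34, Krt81 and Krt86 were at 0 in at least 1 library. The 8 follicle bulge markers summed to 721 to 1920 CPM in osimertinib skin and 3210 to 8780 CPM in control skin. Most of that sum was Krt15, at 474 to 1720 CPM in osimertinib skin and 2890 to 8410 CPM in control skin. Of the 8, 6 had a negative log2 fold change and 2 a positive one, Lgr5 (0.06) and Tcf7l1 (0.23). The part of these differences in the member values below was not tested, except that muscle was also fitted as a covariate. That muscle score, the centred mean log2 CPM of the muscle markers, was −6.34 in control 3 and 0.49 to 2.56 elsewhere. The fit thus rests largely on control 3, and it is not a separate check from leaving that library out. In such bulk samples, fewer cells of a type and less RNA per cell cannot be told apart.

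The family works as a balance of 3 kinds of protein. The guardians Bcl2, Bcl2l1 (BCL-X) and Mcl1 hold the pore formers Bax and Bak1 in check, and the BH3-only proteins, here Bcl2l11 (BIM), Bmf, Bbc3 (PUMA), Pmaip1 (NOXA) and Bid, bind the guardians or activate the pore formers when a cell is stressed or loses growth factor signals. In keratinocytes and in EGFR-dependent tumour cells, signalling from EGFR through ERK and AKT is known to restrain BIM and BMF and to sustain MCL1 and BCL-XL, which is why these genes are watched when EGFR is blocked. Much of this control acts on the proteins, by phosphorylation, cleavage or degradation, and was not measured by RNA-seq.

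In osimertinib skin both pore formers were higher than in control skin and the guardians were lower on average, while the BH3-only genes went both ways. Bax had the smallest p of the 10, with a fold change of 1.54. Bak1 had a fold change of 1.31, and Bcl2l1 was at 0.699 and Mcl1 at 0.645 of control. None of these differences passed the quasi-likelihood test of edgeR with Benjamini-Hochberg adjustment over all 13498 genes tested, which called 0 members and 0.0% of all genes in either direction. DESeq2 called 1 of 10 members, Bax, as higher (adjusted p = 0.00781), against 3.42% of all genes called higher and 2.96% called lower (6.39% in all), and limma on log2(FPKM + 1) or log2(FPKM + 0.1) called 0 members. At an unadjusted p under 0.05 in edgeR there were 3 members, Bax and Bak1 higher and Bcl2l1 lower, against 14.0% of all genes (7.22% higher and 6.73% lower). The osimertinib and control libraries did not overlap in 4 of 10 members, Bax, Bak1 and Bid higher and Bcl2l1 lower, against 20.7% of all genes (11.3% higher and 9.38% lower). Without control 2 the members lying lower numbered 4 in place of 1. The share of all genes with groups that did not overlap, in either direction, became 46.3%, and it was 34.5% without control 3. This share covers both directions and so is not the background for the members lying lower. The share of all genes lying lower in that fit is not given here, so the count of 4 cannot be judged.

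The stretches of 250 bases before the RefSeq start are shown for Bax, Bid and Bcl2l1, whose groups did not overlap, and for Bcl2l11, the BH3-only gene best known for its response to EGFR block. They are RefSeq sequences on GRCm38.p6, written 5′ to 3′ on the gene's strand. RefSeq has 3 starts for Bcl2l1 and 2 for Bcl2l11, and the stretch at the start nearest the deposited one is shown. The RefSeq start of Bak1 lies 382 bases inside the deposited gene, so its stretch is not shown, and that of Bid lies 29 bases inside. Capitals mark matches on either strand to the GC box GGGCGG, the E-box CACGTG, the forkhead core TGTTTAC or the p53 decamer, none of which overlap each other in these stretches.
Bax, chr7:45466899-45467148, minus strand: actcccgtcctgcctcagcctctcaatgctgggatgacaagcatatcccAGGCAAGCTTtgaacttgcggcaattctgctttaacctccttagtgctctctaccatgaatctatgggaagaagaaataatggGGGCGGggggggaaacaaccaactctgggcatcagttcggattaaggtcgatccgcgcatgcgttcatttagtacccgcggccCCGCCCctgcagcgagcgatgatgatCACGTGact
Bid, chr6:120916825-120917074, minus strand: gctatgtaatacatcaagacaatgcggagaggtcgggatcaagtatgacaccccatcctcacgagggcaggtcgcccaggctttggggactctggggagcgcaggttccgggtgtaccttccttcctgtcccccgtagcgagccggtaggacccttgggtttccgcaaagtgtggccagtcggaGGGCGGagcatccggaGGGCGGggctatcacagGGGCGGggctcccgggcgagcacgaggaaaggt
Bcl2l1, chr2:152831729-152831978, minus strand: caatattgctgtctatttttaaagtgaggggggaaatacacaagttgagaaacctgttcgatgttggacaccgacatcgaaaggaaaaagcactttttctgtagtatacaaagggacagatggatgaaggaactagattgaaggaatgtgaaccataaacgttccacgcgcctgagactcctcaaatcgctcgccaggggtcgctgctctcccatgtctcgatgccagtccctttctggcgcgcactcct
Bcl2l11, chr2:128125788-128126037, plus strand: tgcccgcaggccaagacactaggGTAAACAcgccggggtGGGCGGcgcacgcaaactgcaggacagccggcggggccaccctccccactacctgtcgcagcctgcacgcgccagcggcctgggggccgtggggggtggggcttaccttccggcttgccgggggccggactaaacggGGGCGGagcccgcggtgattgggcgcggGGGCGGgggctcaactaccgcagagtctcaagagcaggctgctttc
Bax held 2 GC boxes, 1 E-box and 1 p53 decamer, Bid 3 GC boxes, and Bcl2l11 3 GC boxes and 1 forkhead core, while none of these letters was found in the Bcl2l1 stretch. The other Bcl2l11 stretch, before a start inside the gene, held 2 GC boxes and 0 forkhead cores, so the forkhead match belongs to 1 of the 2 starts. Of 32851 mouse stretches of this length, 32.7% hold a GC box, 6.02% the E-box, 3.17% the forkhead core and 7.13% the p53 decamer. Such matches describe letters and not bound sites.

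Levels per length, in FPKM, spread widely between members. Mcl1 was the most abundant in each of the 6 libraries, at 68.5 to 171 FPKM, followed in each by Bax at 16.8 to 43.5 FPKM. Bcl2l1 (7.83 to 15.3 FPKM) and Bak1 (7.98 to 12.9 FPKM) came next, in an order that differed between the groups. Bak1 was above Bcl2l1 in 3 of 3 osimertinib libraries (10.9, 12.3 and 12.9 FPKM for Bak1 against 9.61, 8.52 and 9.01 for Bcl2l1), while in control skin Bcl2l1 was above Bak1 in controls 1 and 3 and about level with it in control 2 (8.22, 7.98 and 9.72 FPKM for Bak1 against 15.3, 7.83 and 14.5 for Bcl2l1). Below them, Pmaip1 averaged 5.06 FPKM over the 6 libraries, Bbc3 2.67, Bmf 2.23 and Bid 1.41, each above the next in 5 of 6 libraries. Bcl2l11 and Bcl2 were the lowest, each averaging 1.24 FPKM over the 6 libraries, and their order split by group. Bcl2l11 was above Bcl2 in 3 of 3 osimertinib libraries (1.23, 1.62 and 1.66 FPKM for Bcl2l11 against 1.05, 1.01 and 1.24 for Bcl2), and Bcl2 was above Bcl2l11 in 3 of 3 control libraries (1.12, 0.302 and 1.5 FPKM for Bcl2l11 against 1.85, 0.686 and 1.61 for Bcl2). No test is attached to either order. Within the guardians, Mcl1 made up 88.3% to 90.7% of the summed guardian FPKM in osimertinib skin and 88.9% to 91.4% in control skin.

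Of the pore formers, Bax (chromosome 7, 45461697 to 45466898, minus strand, GRCm38) had 65.8, 73.9 and 67.3 CPM in osimertinib libraries 1, 2 and 3, against 44.2, 38.5 and 51.7 CPM in control libraries 1, 2 and 3. The lowest treated library lay well above the highest control, and the gap was wider than the range of either group. Bax averaged 69.0 ± 4.29 CPM in osimertinib skin and 44.8 ± 6.60 CPM in control skin (SD, n = 3 each), a log2 fold change of 0.62 ± 0.16 (SE; adjusted p = 0.253 in edgeR). It stayed between 0.55 and 0.74 with any 1 library left out and was 0.73 in the fit with a muscle covariate. The annotated gene shares 192 of its 1576 exonic bases with Gm45808, which was at 0 to 0.0462 CPM.

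Bak1 (chromosome 17, 27019810 to 27029009, minus strand), which can replace Bax in forming the pore, had 30.9, 31.8 and 35.2 CPM in osimertinib libraries 1, 2 and 3, against 22.6, 27.9 and 24.4 CPM in control libraries 1, 2 and 3. Again each treated library lay above each control, by a narrower margin than for Bax. Its log2 fold change was 0.38 ± 0.15 (SE, n = 3 each; adjusted p = 0.346 in edgeR and 0.296 in DESeq2), or 0.32 to 0.49 with 1 library left out. Bak1 shares up to 437 of 2407 exonic bases with Ggnbp1 genes on the opposite strand, and the sources used here do not say whether counting used strand. The Ggnbp1 genes were at 10.6 to 17.9 and 6.79 to 13.0 CPM in osimertinib skin. In control skin they were at 14.3 to 21.7 and 4.72 to 23.3 CPM. Both were highest in control 2, which was also the highest control for Bak1. Their part in the Bak1 values was not tested.

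**Figure D1:**
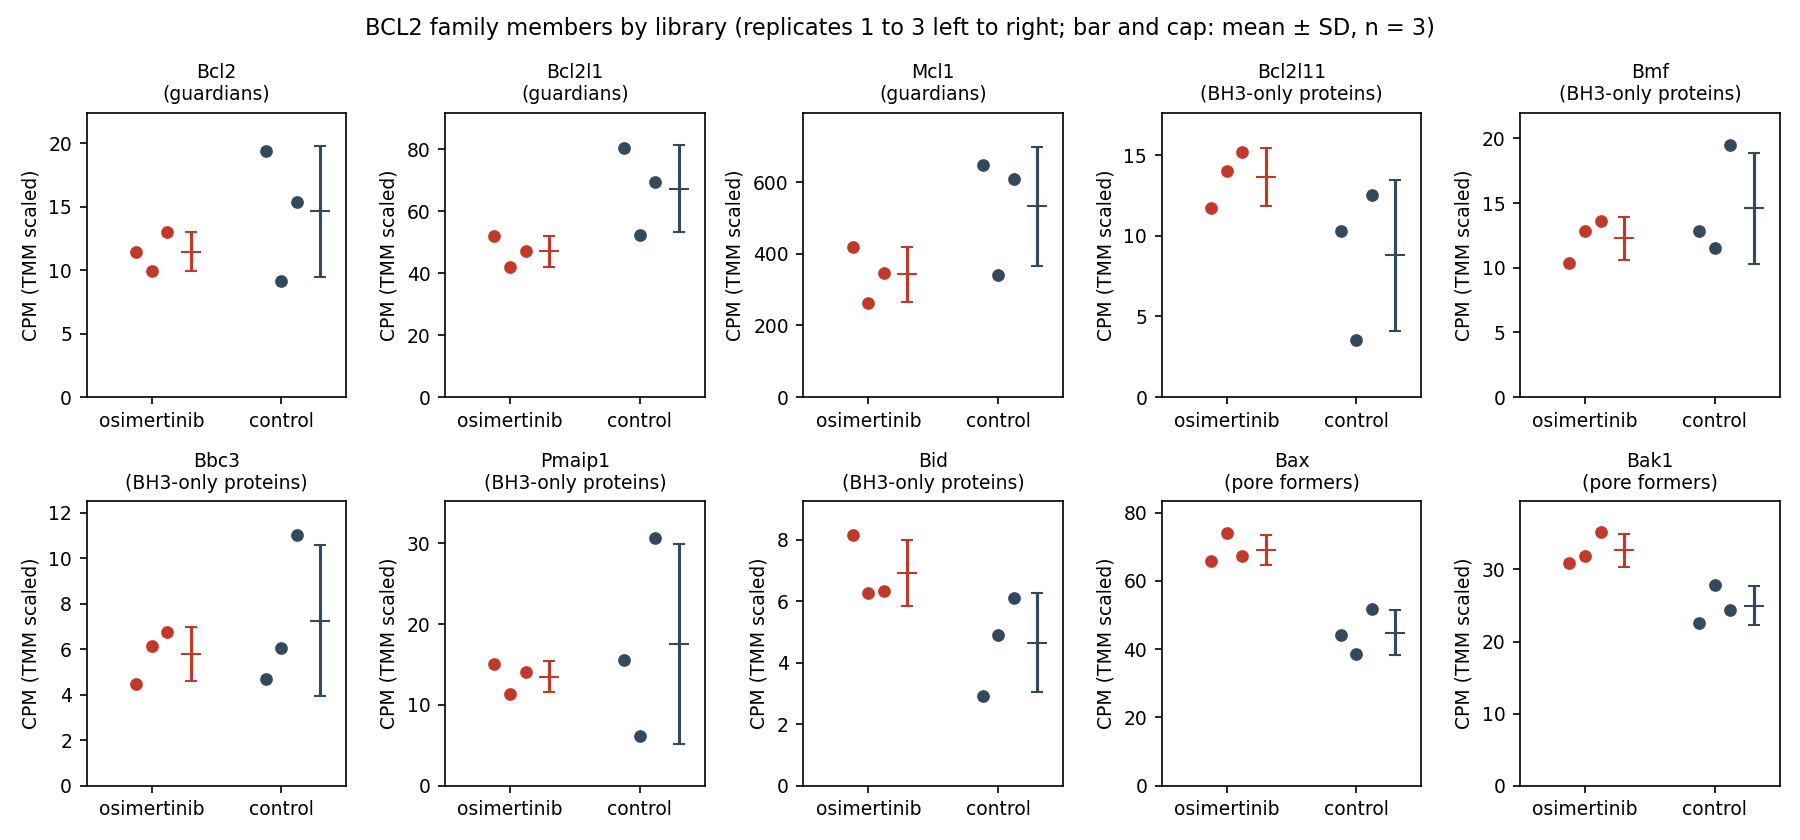
Level of each BCL2 family member in each library, in CPM after TMM scaling, with osimertinib libraries in red on the left and control libraries in dark blue on the right of each panel; the bar and caps are mean ± SD (n = 3). Bax and Bak1 lie higher in every osimertinib library than in any control, while for Pmaip1 and Bcl2l11 the controls alone span 6.16 to 30.7 and 3.56 to 12.5 CPM.

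Among the guardians, Bcl2l1 (chromosome 2, 152780668 to 152831728, minus strand), whose long form protects keratinocytes, had 52.1, 42.1 and 47.1 CPM in osimertinib libraries 1, 2 and 3, against 80.3, 52.3 and 69.4 CPM in control libraries 1, 2 and 3. The groups only just failed to touch, since osimertinib 1 and control 2 were nearly level, and with library totals in place of TMM scaling they overlapped. The log2 fold change was −0.52 ± 0.20 (SE, n = 3 each; adjusted p = 0.342 in edgeR and 0.141 in DESeq2). Gene counts do not separate the long protective form from the short form of the same gene.

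Mcl1 (chromosome 3, 95658788 to 95663176, plus strand), a short-lived guardian needed by many cell types, had 418, 264 and 347 CPM in osimertinib libraries 1, 2 and 3, against 647, 341 and 609 CPM in control libraries 1, 2 and 3. Control 2, the muscle-rich library, lay inside the treated range, and the other controls lay above it. Its log2 fold change was −0.63 ± 0.33 (SE, n = 3 each; adjusted p = 0.451 in edgeR), with a 95% interval of −1.44 to 0.17, and it was −0.85 without control 2. The keratinocyte markers given above had the same sign of log2 fold change as Bcl2l1 and Mcl1. Their basal sums overlapped between groups and were not ordered by library as these genes were (18000 CPM in osimertinib 1, 15900 CPM in control 1). The suprabasal sums also overlapped, at 7760, 3220 and 890 CPM in osimertinib libraries 1, 2 and 3. In control libraries 1, 2 and 3 they were 12300, 5120 and 11500 CPM. These suprabasal sums were highest in controls 1 and 3, as Bcl2l1 and Mcl1 were. The part of these markers in the Bcl2l1 and Mcl1 values was not tested.

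Bcl2 (chromosome 1, 106538178 to 106714274, minus strand), the founding guardian and a product of melanocytes and follicle cells among others, had 11.4, 9.93 and 13.0 CPM in osimertinib libraries 1, 2 and 3, against 19.4, 9.15 and 15.4 CPM in control libraries 1, 2 and 3. Here control 2 was the lowest of all 6 libraries, and the groups overlapped through it. The log2 fold change was −0.36 ± 0.31 (SE, n = 3 each; adjusted p = 0.672 in edgeR), with a 95% interval of −1.11 to 0.39. It was −0.10 without control 1 and −0.58 without control 2. The 8 melanocyte markers summed to 167 to 460 CPM in osimertinib skin and 19.3 to 41.5 CPM in control skin, with Tyr at 0 in at least 1 library, and their part in the Bcl2 values was not tested.

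Of the BH3-only genes, Bcl2l11 (chromosome 2, 128126038 to 128162547, plus strand), the activator that is lost or held down in cells dependent on EGFR, had 11.7, 14.0 and 15.2 CPM in osimertinib libraries 1, 2 and 3, against 10.3, 3.56 and 12.5 CPM in control libraries 1, 2 and 3. Osimertinib libraries 2 and 3 lay above all controls, osimertinib 1 lay between controls 1 and 3, and control 2, the muscle-rich library, was far below the other 5. The log2 fold change was 0.63 ± 0.46 (SE, n = 3 each; adjusted p = 0.597 in edgeR and 0.527 in DESeq2), with a 95% interval of −0.48 to 1.74, which spans both no difference and more than a doubling. It became 0.27 without control 2 and 0.99 without control 3, and was 1.05 in the fit with a muscle covariate. Counts per gene do not separate the splice forms of BIM, which differ in potency.

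Bid (chromosome 6, 120891930 to 120916853, minus strand), which links death receptors to the mitochondrion after cleavage by caspase-8, had 8.14, 6.25 and 6.33 CPM in osimertinib libraries 1, 2 and 3, against 2.92, 4.91 and 6.11 CPM in control libraries 1, 2 and 3. The treated libraries lay above the controls, but control 3 came within a few percent of osimertinib 2, and with library totals in place of TMM scaling the groups overlapped. Its log2 fold change was 0.57 ± 0.34 (SE, n = 3 each; adjusted p = 0.506 in edgeR), and it ran from 0.33 without control 1 to 0.81 without control 3. Bid shares 628 of 3550 exonic bases with Bcl2l13 on the opposite strand, which was at 56.9 to 70.1 CPM in osimertinib skin and 68.4 to 79.5 CPM in control skin, so counts that ignored strand would mix these genes.

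Bmf (chromosome 2, 118528757 to 118549687, minus strand), a BH3-only protein held on the cytoskeleton and released when cells lose attachment, had 10.4, 12.8 and 13.6 CPM in osimertinib libraries 1, 2 and 3, against 12.8, 11.5 and 19.5 CPM in control libraries 1, 2 and 3. The groups overlapped throughout, with control 3 alone standing high. The log2 fold change was −0.25 ± 0.26 (SE, n = 3 each; adjusted p = 0.748 in edgeR), with a 95% interval of −0.89 to 0.39, and it was 0.02 without control 3.

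Bbc3 (chromosome 7, 16308393 to 16318205, plus strand) and Pmaip1 (chromosome 18, 66458533 to 66465565, plus strand) are both targets of p53. Bbc3 had 4.48, 6.13 and 6.75 CPM in osimertinib libraries 1, 2 and 3, against 4.69, 6.07 and 11.0 CPM in control libraries 1, 2 and 3. Pmaip1, whose product neutralises MCL1, had 15.0, 11.4 and 14.1 CPM in osimertinib libraries 1, 2 and 3, against 15.6, 6.16 and 30.7 CPM in control libraries 1, 2 and 3. In both genes the treated libraries were close together and control 3 was the highest of the 6. The log2 fold changes were −0.32 ± 0.38 for Bbc3 and −0.38 ± 0.54 for Pmaip1 (SE, n = 3 each; adjusted p = 0.782 and 0.832 in edgeR). Both turned positive without control 3, at 0.10 and 0.32.

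**Figure D2:**
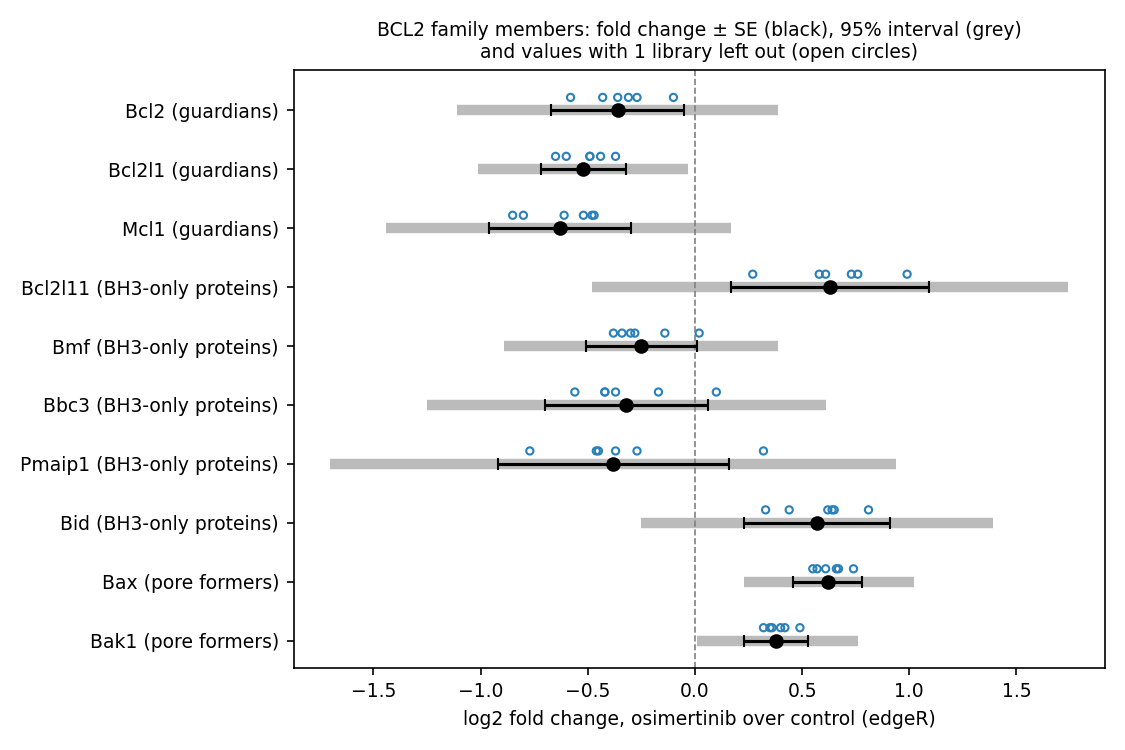
Log2 fold change of each member, osimertinib over control, from edgeR (black point ± SE, n = 3 per group), with its 95% interval in grey and the 6 values obtained with 1 library left out as open blue circles. The open circles of Bax and Bak1 stay right of 0, at 0.55 to 0.74 and 0.32 to 0.49, while those of Bmf, Bbc3 and Pmaip1 fall on both sides.

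The roles were also set against each other within each library, where scaling between libraries cancels. The pore formers Bax and Bak1 summed to 46.2, 55.8 and 50.3 FPKM in osimertinib libraries 1, 2 and 3, against 32.7, 24.8 and 41.2 FPKM in control libraries 1, 2 and 3. Bok, a pore-forming relative that is not a member, is outside these sums. It averaged 48.4 FPKM in osimertinib skin and 53.7 FPKM in control skin, with overlapping groups. The guardians summed to 114, 81.4 and 99.3 FPKM in osimertinib libraries, against 183, 77.0 and 187 FPKM in control libraries 1, 2 and 3. Pore former FPKM per guardian FPKM was therefore 0.405, 0.686 and 0.507 in osimertinib skin, against 0.179, 0.322 and 0.220 in control skin. Each treated library lay above each control in this ratio, including control 2, whose guardian and pore former levels were both low. The mean log2 ratio was −0.94 ± 0.38 in osimertinib skin and −2.10 ± 0.43 in control skin (SD, n = 3 each), a difference of 1.16 that ran from 0.96 to 1.39 with any 1 library left out. No test is attached to these ratios, since the members were chosen with earlier results known, and a transcript ratio is not a ratio of proteins.

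The ratio of Bax to Bcl2, a customary index of the balance, was 33.6, 43.3 and 30.2 in osimertinib libraries 1, 2 and 3, against 13.2, 24.5 and 19.5 in control libraries 1, 2 and 3, in FPKM. Bax per Bcl2l1 was 3.68, 5.11 and 4.16 in osimertinib skin, against 1.60, 2.14 and 2.17 in control skin, with tight groups and a gap larger than either spread. That separation follows from the CPM values above, where Bax was higher and Bcl2l1 lower in every treated library, and is no further result. Bcl2l11 per Mcl1 was 0.0119, 0.0225 and 0.0186 in osimertinib skin, against 0.00675, 0.00441 and 0.00876 in control skin. Here too the groups did not overlap, although they did for each gene on its own. How often ratios of other gene pairs separate the groups was not computed, so this separation is not read as a further result. The summed BH3-only level relative to the guardians did overlap, at 0.0985 to 0.148 in osimertinib skin and 0.0595 to 0.120 in control skin. BH3-only transcripts summed to 11.3 to 12.8 FPKM in osimertinib skin, a narrow range, and to 6.25 to 22.4 FPKM in control skin.

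**Figure D3:**
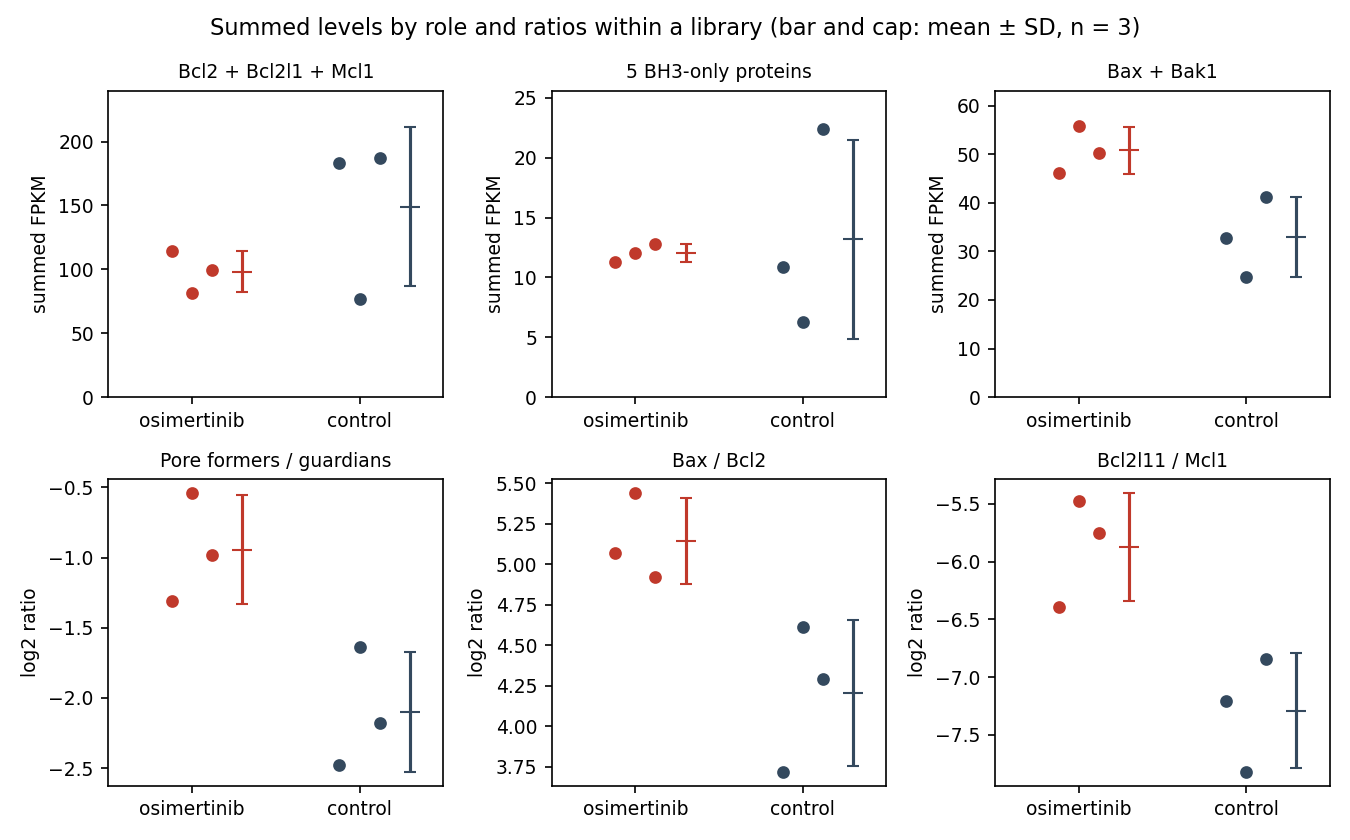
Summed FPKM of the 3 guardians, the 5 BH3-only genes and the 2 pore formers in each library (top), and log2 ratios of FPKM within each library (bottom), with osimertinib in red on the left and control in dark blue on the right; bar and caps are mean ± SD (n = 3). The log2 ratio of pore formers to guardians is −1.31 to −0.54 in osimertinib libraries and −2.48 to −1.64 in control libraries.

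Of 15 further relatives of the family, 12 passed the filter, and edgeR called 0 of them, DESeq2 1 (against 6.39% of all genes) and limma 0. At an unadjusted p under 0.05 in edgeR there were 3 higher and 1 lower (against 7.22% and 6.73% of all genes). The 12 relatives had a median log2 fold change of −0.06, against −0.05 over all genes tested and −0.29 over the 10 members. The largest differences were in Bcl2a1a, Bcl2a1b and Bcl2a1d, near-identical copies of a guardian made by neutrophils and other myeloid cells, between which reads may have been divided in an unknown way. Bcl2a1d had 2.40, 1.15 and 3.66 CPM in osimertinib libraries 1, 2 and 3, against 0.992, 0.590 and 0.421 CPM in control libraries 1, 2 and 3. Its log2 fold change was 1.85 ± 0.55 (SE; adjusted p = 0.273 in edgeR and 0.05, just under the threshold, in DESeq2), and Bcl2a1a and Bcl2a1b were at 1.97 ± 0.62 and 1.73 ± 0.72. Without osimertinib 3, the library highest in all of these genes, the log2 fold changes were 1.43 for Bcl2a1d, 1.25 for Bcl2a1a and 0.83 for Bcl2a1b. The 8 neutrophil markers, of which 4 were tested, summed to 228, 75.7 and 595 CPM in osimertinib libraries 1, 2 and 3 and 12.7 to 38.9 CPM in control skin. Most of the sum in osimertinib skin came from S100a8 and S100a9, at 251 and 296 CPM in osimertinib 3. These genes and Clec4d were higher in every osimertinib library than in any control, while Cxcr2, Csf3r, Mmp9, Retnlg and Ly6g overlapped between groups. Cxcr2, Retnlg and Ly6g were at 0 in at least 1 library. The part of these markers in the Bcl2a1 values was not tested.

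Among the other relatives, Bcl2l2 (BCL-W), a guardian, had 46.6, 39.5 and 39.0 CPM in osimertinib libraries 1, 2 and 3, against 65.4, 51.0 and 53.1 CPM in control libraries 1, 2 and 3. It thus had the same direction as Bcl2l1, with groups that did not overlap and a log2 fold change of −0.44 ± 0.17 (SE; adjusted p = 0.336 in edgeR). Bcl2l15, a gut-expressed relative of the family, was at 3.46 to 13.6 CPM in osimertinib skin and 1.66 to 4.24 CPM in control skin (log2 fold change 1.55 ± 0.60, or 0.96 without osimertinib 3). Bad, a BH3-only protein controlled by growth factors through phosphorylation, was nearly level, at 32.3 to 33.7 CPM in osimertinib skin and 30.8 to 33.9 CPM in control skin, with a log2 fold change of 0.01 ± 0.13 and a 95% interval of −0.30 to 0.33. The pore-forming relative Bok was at −0.14 ± 0.46, the BH3-only Bik at −0.23 ± 0.48, Bcl2l12 at 0.35 ± 0.21 and Bcl2l13 at −0.21 ± 0.15. The mitophagy receptors Bnip3 and Bnip3l were at −0.51 ± 0.53 and −0.18 ± 0.16. Bok turned to 0.04 without control 1, 0.13 without control 3 and 0.02 without osimertinib 2, Bnip3 to 0.13 and Bad to −0.01 without control 2, and Bik to 0.03 without osimertinib 2. Bcl2l10, Hrk and Bcl2l14 were below the filter, Hrk having no count in any osimertinib library and up to 0.349 CPM in control skin.

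Downstream of the mitochondrion, the apoptosome, caspases and their inhibitors formed a list of 18 genes. All were tested, 8 with a positive and 10 with a negative log2 fold change (median −0.02), and edgeR called 0, DESeq2 1 (against 6.39% of all genes) and limma 0, with 1 at an unadjusted p under 0.05 (against 14.0% of all genes). Birc5 (survivin), which acts in mitosis as well as on caspases, had 38.1, 50.8 and 45.6 CPM in osimertinib skin, against 13.4, 12.6 and 37.5 CPM in control skin. All treated libraries were above all controls, narrowly so for control 3, with a log2 fold change of 1.08 ± 0.46 (SE, n = 3 each; adjusted p = 0.366 in edgeR). It was 1.79 without control 3 and 0.83 without control 2, and 1.68 in the fit with a muscle covariate. The 14 proliferation markers summed to 672 to 1010 CPM in osimertinib skin and 290 to 598 CPM in control skin, with none at 0, and their part in the Birc5 and Bax values was not tested. Casp6 was at 0.48 ± 0.23, the caspase-9 platform Apaf1 at 0.46 ± 0.29 and the caspase inhibitor Xiap at −0.16 ± 0.16.

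Of 13 listed death receptor genes 12 were tested, with Fasl below the filter (median log2 fold change 0.05). EdgeR, DESeq2 and limma called 0 of them, against 6.39% of all genes in DESeq2. At an unadjusted p under 0.05 in edgeR there were 0, against 14.0% of all genes. Fas, the receptor that leads to Bid cleavage, had 10.1, 7.94 and 12.9 CPM in osimertinib libraries 1, 2 and 3, against 13.4, 14.3 and 20.0 CPM in control libraries 1, 2 and 3. The groups did not overlap, and the log2 fold change was −0.63 ± 0.27 (SE; adjusted p = 0.371 in edgeR). The adaptor kinase Ripk1 was at −0.68 ± 0.30 and the TNF receptor Tnfrsf1a at −0.48 ± 0.30, both with overlapping groups.

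The p53 list, which bears on Bax, Bbc3 and Pmaip1, went both ways, 6 of 15 genes with a positive and 9 with a negative log2 fold change (median −0.07). EdgeR called 0 of them, limma 0, and DESeq2 1 (against 6.39% of all genes). At an unadjusted p under 0.05 in edgeR there were 2 higher and 2 lower (against 7.22% and 6.73% of all genes). The DESeq2 call was Trp53inp1, a p53-induced stress gene, with 67.6, 55.3 and 43.4 CPM in osimertinib libraries 1, 2 and 3, against 324, 90.5 and 292 CPM in control libraries 1, 2 and 3. Every treated library was below every control, by a log2 fold change of −2.09 ± 0.50 (SE, n = 3 each; adjusted p = 0.229 in edgeR and 0.00115 in DESeq2). Pidd1, a p53-induced activator of caspase-2, was at 11.0 to 23.4 CPM in osimertinib skin and 4.48 to 9.58 CPM in control skin (1.32 ± 0.44), and the G2-phase p53 regulator Gtse1 at 11.0 to 15.0 CPM in osimertinib skin and 3.91 to 9.97 CPM in control skin (1.11 ± 0.42, or 1.69 without control 3). Trp53 itself was at 0.35 ± 0.30. Cdkn1a, the cell cycle inhibitor that is the classic p53 target, was at −0.56 ± 0.39 (adjusted p = 0.577 in edgeR), opposite in sign to Bax.

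Of 14 listed inducers of BH3-only genes and regulators of BCL2 family turnover, 13 were tested, with Btrc below the filter (median −0.19). EdgeR, DESeq2 and limma called 0, against 6.39% of all genes in DESeq2. Only 1 gene, lower, had an unadjusted p under 0.05 in edgeR, against 14.0% of all genes (6.73% lower). It was Foxo1, a forkhead factor that AKT holds out of the nucleus, with 30.4, 42.6 and 37.5 CPM in osimertinib libraries 1, 2 and 3, against 58.2, 49.6 and 47.6 CPM in control libraries 1, 2 and 3. The groups did not overlap, and its log2 fold change was −0.49 ± 0.18 (SE; adjusted p = 0.326 in edgeR). Foxo3, the forkhead factor best known for inducing BIM, was at −0.36 ± 0.24 with overlapping groups, and the stress pseudokinase Trib3 at −0.51 ± 0.32.

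**Figure D4:**
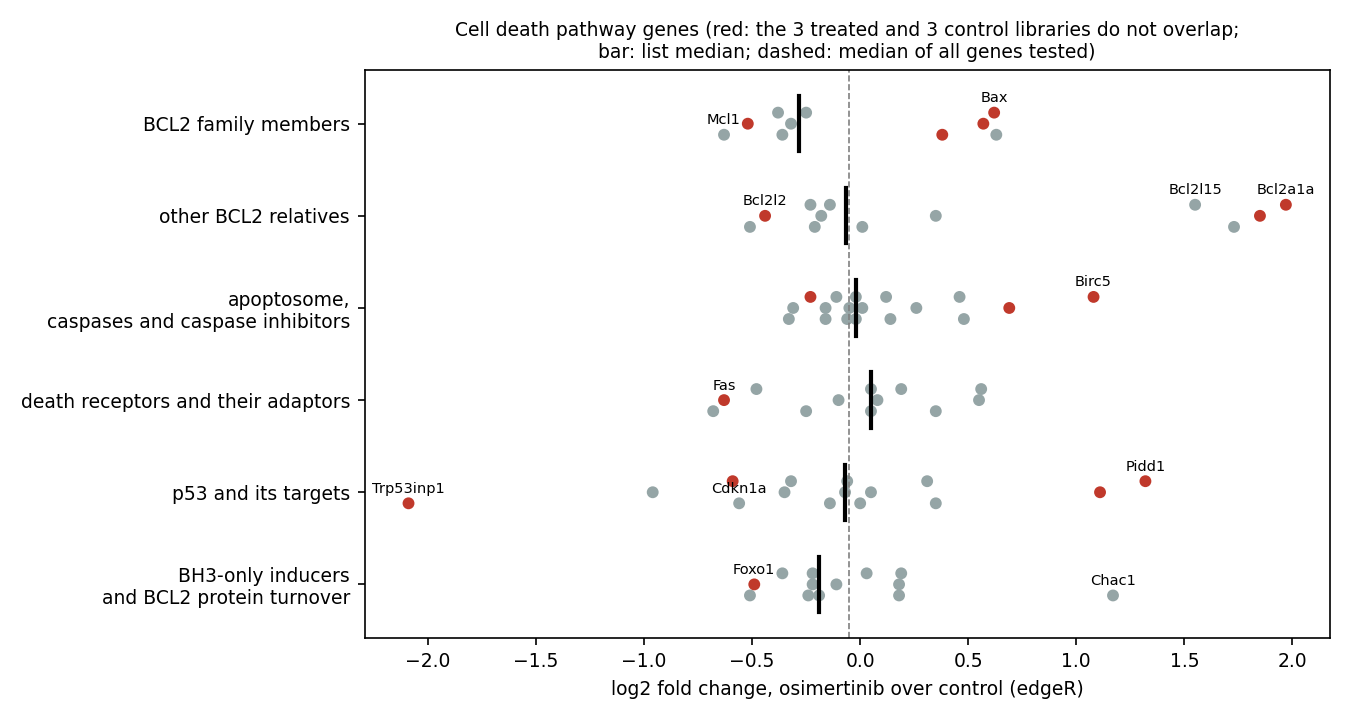
Log2 fold change, osimertinib over control, of each tested gene in the BCL2 family and in 5 lists of related genes; genes whose 3 osimertinib and 3 control libraries do not overlap are red, others grey, black bars are list medians and the dashed line is the median of all genes tested, −0.05. List medians lie between −0.29 for the family members and 0.05 for death receptor genes, with Trp53inp1 at −2.09 and Bcl2a1a at 1.97 as the extremes.

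Over the 6 libraries, the genes whose log2 CPM followed Bcl2l11 most closely were Tmed9 (Pearson r = 0.995), Cfdp1 (0.988) and Xxylt1 (0.986), all lowest in control 2. Those closest to Bmf were Klhl42 (0.998), Rmc1 (0.991) and Maml2 (0.991), all highest in control 3. These values describe a pattern over 6 points that share library and tissue composition, picked from 13498 genes.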

How the data were processed

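The deposited table holds raw counts per gene and FPKM values for each of the 6 skin libraries, both made by the authors. Per the labels' protocols, poly(A) RNA was sequenced in pairs from dUTP-stranded libraries with molecular identifiers. Per the submitters' processing notes, the tools included cutadapt 1.9 and the genome was GRCm38; the sources used here do not give aligner, counter, annotation or whether strand and identifiers entered the counts. A further 6 value columns match no sample and were not used.

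Groups and numbers come from the sample titles. Library totals give a floor of 3 counts at 0.0494 to 0.0554 CPM before scaling, covering counting error only. The 13498 genes whose FPKM averaged 1 or more were tested with edgeR 4.0.16 (R 4.3.3) on the counts, with TMM scaling, a two-sided quasi-likelihood test without covariates and a Benjamini-Hochberg threshold of 0.05. SE is the log2 fold change over the square root of F. CPM values use TMM factors; FPKM serves levels between genes. DESeq2 1.42.0, limma 3.58.1 with pseudocounts of 1 and 0.1, other scalings and filters, a muscle covariate, a replicate block and single libraries left out were alternatives. The scripts were tested on simulated data. Genes named are the members, all tested relatives, and from each other list the 3 with the smallest p plus Trp53, Cdkn1a, Foxo3, Apaf1 and Xiap, less 1 gene that is not reported here; genes most like Bcl2l11 and Bmf exclude Gm and Rik names. The members and all lists were chosen with earlier results of these data known. Ddit3 has 2 rows in the table, and the first was used. Exon overlaps come from GENCODE M21, whose coordinates for all 10 members equal the table's.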

Additional observations from a re-analysis of the deposited data

How the results depend on the processing

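Bcl2, Bcl2l1, Mcl1, Bcl2l11, Bid, Bax and Bak1 kept their direction under every alternative run, 16 or 17 for each gene. Bax was called by DESeq2 alone (1 member higher). Over all genes, DESeq2 called 460 higher and 398 lower and limma 12 and 5 at a pseudocount of 1 and 1 and 1 at 0.1. A mean FPKM of at least 5 gave 2 lower, and library totals or the muscle covariate 1 lower each, against 0 in each direction. With limma the median of all genes was 0.07 and 0.10, against −0.05. The 3 BH3-only genes that reversed did so without control 3 (Bmf 0.02, Bbc3 0.10, Pmaip1 0.32). Their lowest values with 1 library left out were −0.38, −0.56 and −0.77. Pmaip1 also reversed with the muscle covariate (0.35), which rests largely on control 3. Bok reversed with limma (0.05 and 0.06) and the muscle covariate (0.19), and with single libraries left out ran from −0.48 to 0.13. In the same way Bad ran from −0.01 to 0.05, Bik from −0.76 to 0.03 and Bnip3 from −0.91 to 0.13. With library totals, 0 members lay wholly below the controls. With single libraries left out, the number of members lower was 1 to 4. Groups did not overlap, in either direction, in 23.5% to 46.3% of all genes. The share of all genes lying lower alone is not given here, so these counts of members cannot be judged. With the replicate block the calls stayed at 0 and Pmaip1 was −0.10. Correlations of deviations between libraries of the same number were 0.222, 0.0294 and −0.115, and those between different numbers ran from −0.284 to 0.111. With 3 libraries per group and unequal muscle content, these values cannot settle whether the numbers pair the samples. The labels state no pairing. The causes of these shifts were not tested. A count of 0 limits a level to 0.0494 to 0.0554 CPM.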
